A study of Mus musculus with 4 samples.

Results

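The 10 genes described here encode proteins that release, store, take up or extrude calcium at the sarcoplasmic reticulum of heart muscle: Ryr2, Trdn, Asph, Jph2, Casq1, Casq2, Atp2a2, Pln, Sln and Slc8a1. They were chosen by gene symbol from the 20701 symbols of the transcript table, and for each symbol the transcript entry with the highest summed count was used. The 10 symbols held 27 of the 31507 transcript entries. Levels were measured by RNA-Seq in 4 libraries of mouse cardiac progenitor cells (CPCs) made from E14 Tg(Nkx2-5-EmGFP) embryonic stem cells, which carry a green fluorescent reporter of the cardiac transcription factor gene Nkx2-5. Of these, 2 libraries came from different control clones and 2 from different Isl1-/- clones, which had been made with CRISPR/Cas9 and a pair of guide RNAs, and they are called control and Isl1_KO below. In both groups the stem cells were grown on mitomycin-treated feeder fibroblasts and differentiated, and the reporter-positive cells were sorted at day 5, so each library is a sorted cell population from 1 clone in culture. The comparison asks which transcripts of these progenitors depend on Isl1, a LIM-homeodomain factor that marks second heart field progenitors.

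In heart muscle, calcium that enters through L-type channels opens the ryanodine receptor Ryr2 in the membrane of the sarcoplasmic reticulum, which releases the stored calcium that starts contraction. Junctophilin-2 (Jph2), triadin (Trdn) and junctin, which is made from the Asph gene, hold the release site together, and calsequestrin (Casq2 in heart, Casq1 mostly in skeletal muscle) buffers calcium in the store. The pump SERCA2 (Atp2a2) returns calcium to the store under the control of phospholamban (Pln) and sarcolipin (Sln), while the sodium-calcium exchanger NCX1 (Slc8a1) removes it from the cell.

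In Isl1_KO 3 of these genes fell, the release channel Ryr2, the exchanger Slc8a1 and the pump regulator Pln. In the entries used, Atp2a2 and Asph stayed within 1.5-fold of control. Enough reads for a test were found for 7 of the 10 genes. With edgeR (quasi-likelihood F test, two-sided, Benjamini-Hochberg adjustment over 12715 genes, threshold 0.05), 3 of the 7 fell, 0 rose and 4 did not pass. Of all genes tested, 2.45% passed in either direction, 1.94% fell and 0.503% rose by the same criterion. With DESeq2, 5 members fell, against 3.18% of the genes with an adjusted p, and by the study's criteria (1.5-fold and an unadjusted p under 0.05) 4 fell, against 4.57%. The other 3 genes, Trdn, Casq2 and Sln, were at or close to 0 counts and were not tested. Both Isl1_KO libraries lay under both control libraries for 6 of the 7 tested genes, which was the case for 29% of all tested genes, and above them for Asph, as for 29.1%.

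**Figure D1:**
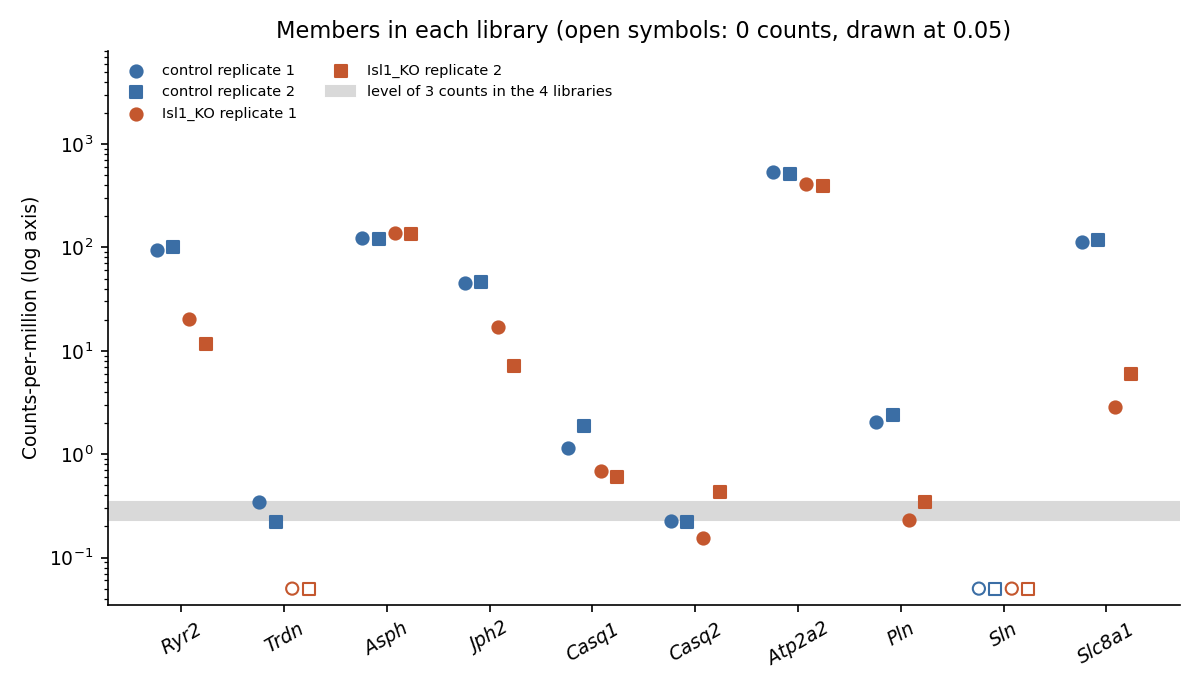
Levels of the 10 genes in counts-per-million (CPM, log axis) in each of the 4 libraries, with control in blue and Isl1_KO in orange; the grey band spans the level that 3 counts give in the 4 libraries, and open symbols stand for 0 counts. Ryr2, Slc8a1 and Jph2 lie clearly lower in both Isl1_KO libraries, Atp2a2 and Asph lie at nearly the same height in all 4, and Trdn, Casq2 and Sln lie around or under the level of 3 counts.

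The libraries held 8821517 and 9147425 counts in control and 13186109 and 11388333 in Isl1_KO over 1 entry per symbol, and 3 counts corresponded to between 0.231 and 0.341 CPM. Isl1 itself, which checks the labels, was at 35.1 and 35.7 CPM in control and at 1.31 and 2.08 CPM in Isl1_KO (log2 fold change -4.39 ± 0.21 (SE, n = 2 per group), edgeR adjusted p = 0.00277). Counts of the control libraries differed only slightly more than sampling of reads gives (chi-square divided by its degrees of freedom 1.13, 13323 genes), whereas the same figure was 17.7 (13427 genes) for the Isl1_KO libraries. The spread that the tests rest on therefore came mostly from the difference between the Isl1_KO clones. Of the cardiomyocyte markers, 9 of 9 tested fell, and their summed level went from 1714 and 1793 CPM in control to 97.6 and 90.7 CPM in Isl1_KO. Of the cardiac progenitor markers 4 of 5 fell, among them Nkx2-5, whose reporter was used for the sort, from 21.1 and 19.8 to 4.77 and 4.34 CPM. Among skeletal muscle markers Myod1 and Myf5 were at 0 in all 4 libraries, 0 of 3 tested passed, and the sum lay between 39.3 and 50.04 CPM. Summed smooth muscle markers were at 2519 and 2526 CPM in control and at 2173 and 744 CPM in Isl1_KO, and those of fibroblasts at 2149 and 2103 and at 1359 and 497 CPM, with none of the 5 and 6 tested genes past the threshold. Endothelial markers, with 0 of 5 past the threshold, summed to between 334 and 376 CPM. Of these Cdh5, Tek and Tie1 were lower in both Isl1_KO libraries (log2 fold changes -0.60, -1.18 and -1.02). Pecam1 was higher in both (0.26), and Kdr overlapped between the groups. Pluripotency markers, with 0 of 2 past the threshold, summed to between 7.83 and 20.6 CPM. Blood markers summed to 499.9 and 511 CPM in control and to 375 and 262 CPM in Isl1_KO. Of these 5 blood markers Runx1 rose and 4 did not pass. Among the 4, the embryonic globins were lower in both Isl1_KO libraries. Hbb-bh1 was at 284 and 293 CPM in control and 159.7 and 41.99 CPM in Isl1_KO, and Hba-x at 98.3 and 97.7 against 40.6 and 3.64 CPM. Gata1 and Tal1 were higher in both. Gata1 was at 9.08 and 8.10 CPM in control and 14.5 and 16.4 CPM in Isl1_KO, and Tal1 at 38.0 and 39.9 against 58.3 and 90.1 CPM. The part of these marker differences in the results on the calcium genes was not tested, and in bulk RNA fewer cells of a type and less RNA per cell cannot be told apart.

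To show where the 3 genes that fell begin, the 250 bases before their RefSeq start sites are given from the promoter table on GRCm38.p6, on the strand of the gene. Each was found at a single place in NCBIM37, the assembly of mm9 to which the reads had been mapped, and the coordinates are those of NCBIM37. Capitals mark the motifs that were found.
Ryr2, chr13:12199213-12199462, minus strand: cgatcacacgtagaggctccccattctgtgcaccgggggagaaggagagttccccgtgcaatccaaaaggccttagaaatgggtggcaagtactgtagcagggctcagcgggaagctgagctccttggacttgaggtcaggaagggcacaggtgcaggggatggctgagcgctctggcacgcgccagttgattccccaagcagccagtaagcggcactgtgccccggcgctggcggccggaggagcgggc
Slc8a1, chr17:82137728-82137977, minus strand: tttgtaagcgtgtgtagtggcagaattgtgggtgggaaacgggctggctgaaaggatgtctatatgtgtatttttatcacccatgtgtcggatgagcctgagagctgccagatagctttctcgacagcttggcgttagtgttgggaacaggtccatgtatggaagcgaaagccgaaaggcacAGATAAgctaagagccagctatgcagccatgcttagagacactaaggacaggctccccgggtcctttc
Pln, chr10:53057242-53057491, plus strand: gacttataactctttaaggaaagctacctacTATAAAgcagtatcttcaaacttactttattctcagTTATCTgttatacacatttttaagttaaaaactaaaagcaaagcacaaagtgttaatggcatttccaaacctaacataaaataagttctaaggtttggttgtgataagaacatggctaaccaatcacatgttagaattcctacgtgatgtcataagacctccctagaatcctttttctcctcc

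The windows of Ryr2 and Pln ended at the first base of their GENCODE vM1 gene models. The Slc8a1 window, from base 82137728, lay upstream of, and apart from, its gene model there, which began at base 82048947. The motifs AGATAA (recognised by GATA factors), TNAAGTG (an NKX2 motif), TAATTA (a homeodomain core), TATAAA (of core promoters), CATTCC (a TEAD motif), CAGCTG (an E-box) and the MEF2 and SRF boxes were looked for on both strands, of which TATAAA can overlap the MEF2 box. AGATAA lay 68 bases before the Slc8a1 start and, as TTATCT on the printed strand, 183 bases before the Pln start, and it occurred in 9.99% of 32851 promoter windows of this length. TATAAA was found 219 bases before the Pln start and in 12.4% of all windows. None of the 8 motifs occurred in the Ryr2 window. RefSeq windows were also given for 3 genes that did not fall or were not tested. The Casq2 window held a MEF2 box 69 bases before the start (2.92% of all windows), and those of Casq1 and Jph2 held CAGCTG (13.0%). Atp2a2, Sln, Trdn and Asph had no entry. The GC content of these windows ranged from 32.8% for Pln to 63.2% for Ryr2, with a median of 52.4% over all windows.

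Ryr2 (chromosome 13, 11645370 to 12199212, minus strand, NCBIM37) was covered by 824 and 924 counts in the control libraries and by 262 and 134 in the Isl1_KO libraries. These are 93.5 and 101.1 CPM in control and 20.1 and 11.6 CPM in Isl1_KO, so both knockout clones lay far under both controls. The release channel thus fell 6.09-fold, to 16.4% of control (log2 fold change -2.61 ± 0.25 (SE, n = 2 per group), edgeR adjusted p = 0.0150), and ranked 109 from the lowest log2 fold change of 12715 genes. Its level in the first Isl1_KO clone was 1.73 times that in the second (95% exact counting interval 1.40 to 2.15), while the controls differed within counting error, with a ratio of 0.925 (0.841 to 1.02). Without either control library Ryr2 no longer passed, and most calls over all genes were lost as well. Its log2 fold change was then -2.67 and -2.55. Ryr2 has a transcript of 16706 bases, and the 1272 longest tested transcripts had a median log2 fold change of -0.10, against -0.0027 over all tested genes. With a length trend removed, the log2 fold change of Ryr2 was -2.45 (adjusted p = 0.0226).

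Measured per length, Ryr2 was not the main release channel gene of these progenitors. In control it was at 3.29 ± 0.18 RPKM (reads scaled to transcript length and library size, mean ± SD, n = 2), against 6.15 for Itpr1 and 4.24 for Itpr3, which encode inositol trisphosphate receptors. Ryr2 made up 21.3% and 23.2% of the summed RPKM of Ryr1 to Ryr3 and Itpr1 to Itpr3 in control and 8.22% and 3.85% in Isl1_KO. The share of Itpr3 was 29.7% and 27.7% in control and 41.6% and 39.9% in Isl1_KO, and that of Itpr1 41.4% and 41.8% against 38.9% and 49.1%. Neither Itpr gene passed the test, with log2 fold changes of -0.57 ± 0.21 for Itpr1 and -0.17 ± 0.11 for Itpr3 (SE, n = 2 per group, edgeR adjusted p = 0.190 and 0.414). The sum over the 6 channels was 14.9 and 14.7 RPKM in control and 8.27 and 10.6 RPKM in Isl1_KO. Ryr1, the skeletal muscle release channel, stayed between 28 and 36 counts, and Ryr3 between 5 and 11. Shares within a library are given with no test, since an exact permutation test of 2 against 2 libraries cannot go below p = 0.333.

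**Figure D2:**
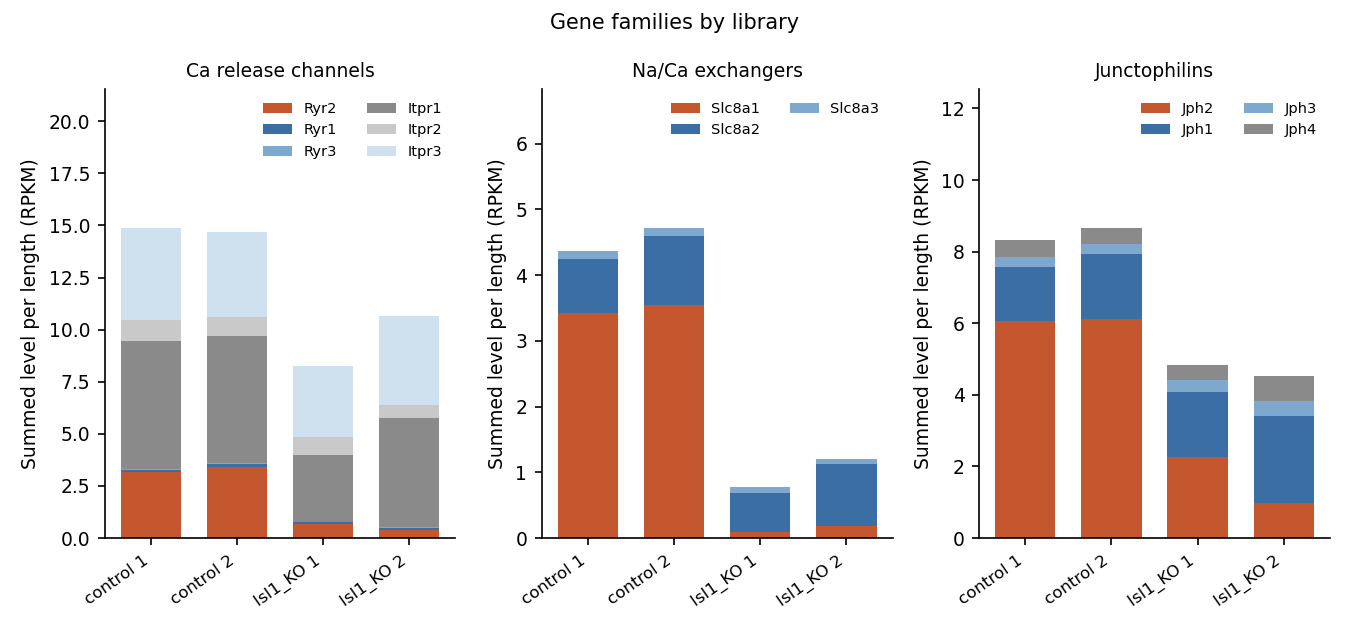
Stacked levels (RPKM) in each library of the calcium release channels, the plasma membrane sodium-calcium exchangers and the junctophilins; each colour is 1 gene, and the orange part at the base is Ryr2, Slc8a1 or Jph2. The orange part is smaller in both Isl1_KO libraries in every family, and for the exchangers it goes from 78.5% and 75.4% of the column to 11.5% and 15.8%.

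Of the genes whose proteins hold the release site together, Jph2 and Asph did not pass the test, and Trdn was not tested. Jph2 (chromosome 2, 163161978 to 163223729, minus strand), which ties the reticulum to the plasma membrane, was at 45.4 and 46.0 CPM in control and at 17.1 and 7.11 CPM in Isl1_KO. Both knockout values lay under both control values, and the knockout clones lay further apart than for any other tested member, with a ratio of 2.40 (95% exact counting interval 1.85 to 3.13). Its log2 fold change was -1.91 ± 0.37 (SE, n = 2 per group), with an edgeR adjusted p of 0.0752. The call depended on the analysis: Jph2 passed with DESeq2 (adjusted p = 5.83e-06) and with edgeR without a filter on low counts (adjusted p = 0.0413). The first Isl1_KO clone, with the higher Jph2 and Ryr2 levels, also had the higher summed smooth muscle, fibroblast and blood markers given above. Summed cardiomyocyte markers were close in the 2 clones (97.6 and 90.7 CPM), and endothelial ones were higher in the second (334 and 372 CPM). Single heart genes went both ways, with a ratio of the first clone to the second of 1.71 for Tnni1 and 0.624 for Myl4. The part of any of these in the difference was not tested. Without the first clone the log2 fold change of Jph2 was -2.68, and without the second it was -1.42. Among the 4 junctophilin genes, Jph2 took 72.7% and 70.9% of the summed RPKM in control and 47.0% and 21.6% in Isl1_KO. The neighbour Jph1, known from skeletal muscle, was at 12.8 and 15.3 CPM in control and at 15.5 and 19.9 CPM in Isl1_KO (log2 fold change 0.32 ± 0.19, SE, n = 2 per group, edgeR adjusted p = 0.354).

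Asph (chromosome 4, 9375216 to 9596491, minus strand) encodes aspartate beta-hydroxylase, which many tissues make, and by alternative splicing junctin and junctate. It was at 124 and 122 CPM in control and at 138 and 136 CPM in Isl1_KO, slightly higher in both knockout libraries (log2 fold change 0.16 ± 0.06 (SE, n = 2 per group), edgeR adjusted p = 0.210). The 11 Asph entries share reads and fell into 3 levels. The 3 entries with the most counts, of 6422 to 6662 bases, were at 10.1 to 10.6 RPKM in control and 11.6 to 12.2 RPKM in Isl1_KO. Next came 5 entries of 2505 to 2873 bases at 16.4 to 19.0 RPKM in control and 18.4 to 20.4 RPKM in Isl1_KO. The last 3 entries, of 1754 to 2947 bases, were much lower, at 0.98 to 1.62 RPKM in control and 1.73 to 2.24 RPKM in Isl1_KO. In a fit over all entries none of the 11 passed, and their log2 fold changes ran from 0.12 to 0.67, with 0.36 to 0.67 at the lowest level. The table does not say which entry encodes junctin. Exons of Asph overlap those of Clvs1 on the opposite strand (169 and 165 counts in control, 264 and 254 in Isl1_KO), and since reads were counted on both strands, those of the overlap cannot be told apart.

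Trdn (chromosome 10, 32803289 to 33196515, plus strand), the gene of triadin, was found with 3 and 2 counts in control and with 0 in both Isl1_KO libraries. This is at or under the level of 3 counts in every library, so no fold change is given. Casq2 (chromosome 3, 101890338 to 101950437, plus strand), the calsequestrin of heart muscle, had 2 counts in each control library and 2 and 5 in Isl1_KO, and the groups overlapped. Casq1 (chromosome 1, 174140025 to 174150026, minus strand), its skeletal muscle counterpart, had 10 and 17 counts in the control libraries, against 9 and 7 in Isl1_KO (log2 fold change -1.19 ± 0.43 (SE, n = 2 per group), edgeR adjusted p = 0.190). In CPM the Casq1 values were 1.14 and 1.86 in control and 0.692 and 0.607 in Isl1_KO. For Casq1 the ratio of summed, scaled counts was 2.31 for control over Isl1_KO (95% exact interval 1.20 to 4.58, counting error only), although the test across libraries did not pass. For Casq2 the same ratio was 0.781 (0.168 to 3.07), so a difference was not detectable at this depth. Per length, Casq2 made up 12.8% and 8.20% of the calsequestrin RPKM in control and 12.5% and 34.5% in Isl1_KO, on so few reads that no order can be read from it. In the same control cells, Ryr2 had 824 and 924 counts where Casq2 had 2, and Casq2 stood at 1.58 and 1.47 per 100 Ryr2 in RPKM.

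The pump gene Atp2a2 (chromosome 5, 122903531 to 122952183, minus strand) was by far the most abundant of the 10. Its counts were 4702 and 4738 in control and 5331 and 4570 in Isl1_KO, which are 534 and 518 CPM against 409.8 and 396 CPM. The groups did not overlap and the clones of each group lay close together, with Isl1_KO at 76.6% of control (log2 fold change -0.38 ± 0.06 (SE, n = 2 per group)). With an edgeR adjusted p of 0.0601 this small difference did not pass, although it did with DESeq2 (0.0232) and with edgeR without a filter on low counts (0.0472). Atp2a2 held 97.8% and 97.5% of the summed RPKM of the 3 SERCA pumps in control and 97.5% and 96.4% in Isl1_KO, so SERCA2 stayed the prevailing pump transcript in every library. The related Atp2a3, found in many non-muscle cells, was at 1.01 and 0.865 RPKM (means of control and Isl1_KO), and the skeletal muscle pump Atp2a1 at 0.255 and 0.410 RPKM. The 3 Atp2a2 entries, of 4292, 4480 and 5704 bases, share most reads, and the kept entry, the longest, carries a RefSeq identifier for non-coding RNA. The shortest had 75.9% and 77.4% of the counts of the longest in control and 75.0% and 74.7% in Isl1_KO. Fitted over all entries, the log2 fold changes of the 3 were -0.41 (adjusted p = 0.0473), -0.35 (0.0699) and -0.38 (0.0589), in order of length. Which protein form each entry encodes is not given in the table.

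Pln (chromosome 10, 53057492 to 53065805, plus strand), whose product restrains SERCA2, had only 18 and 22 counts in the control libraries, against 3 and 4 in Isl1_KO. In CPM these are 2.04 and 2.41 against 0.231 and 0.347, so the knockout values lay near the level of 3 counts. Pln fell (log2 fold change -2.91 ± 0.41 (SE, n = 2 per group), edgeR adjusted p = 0.0397). Only its control counts reached 10, and with at least 10 counts required in every library Pln could not be tested. The ratio of the counts summed per group and scaled to library size, which needs no fitted value, was 7.81 for control over Isl1_KO (95% exact interval 3.46 to 20.7, counting error only). The call was lost without either control library, as were most calls over all genes. The log2 fold change of Pln was then -3.02 and -2.79. Relative to its target, Pln stood at 0.891 and 1.07 per 100 Atp2a2 in RPKM in control and at 0.124 and 0.197 in Isl1_KO. The Pln transcript thus differed between the groups far more than that of the pump. Sln (chromosome 9, 53698058 to 53701651, plus strand), the atrial and skeletal muscle counterpart of Pln, had 0 counts in all 4 libraries, which allows up to 0.341, 0.328, 0.231 and 0.260 CPM.

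Slc8a1 (chromosome 17, 81785359 to 82048947, minus strand) had the lowest log2 fold change of the 7 tested members. Its counts were 997 and 1070 in control and 37 and 68 in Isl1_KO, or 113 and 117 CPM against 2.84 and 5.90 CPM. Both knockout clones were thus at a small fraction of control, on average 3.75% (26.6-fold lower, log2 fold change -4.74 ± 0.27 (SE, n = 2 per group), edgeR adjusted p = 0.00369). Slc8a1 ranked 36 from the lowest log2 fold change of 12715 genes. In the fits that left out 1 library its log2 fold change ran from -5.33 to -4.28. Here the second clone was the higher, with a ratio of the first to the second of 0.482 (95% exact counting interval 0.314 to 0.730), the opposite order to Ryr2 and Jph2. The 4 Slc8a1 entries gave nearly the same log2 fold change, from -4.75 to -4.64, and the shortest had between 55.4% and 61.8% of the counts of the longest in the 4 libraries. The kept entry, the longest, carries a RefSeq identifier for non-coding RNA, as it did for Atp2a2. With a length trend removed, the log2 fold change was -4.58 (adjusted p = 0.00370).

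Slc8a1 was the main exchanger gene in control and no longer so in Isl1_KO. It made up 78.5% and 75.4% of the summed RPKM of Slc8a1 to Slc8a3 in control and 11.5% and 15.8% in Isl1_KO, where Slc8a2, best known from brain, made up 75.6% and 77.5%. Slc8a2 itself did not pass, at 6.81 and 8.75 CPM in control and 4.92 and 7.46 CPM in Isl1_KO (log2 fold change -0.34 ± 0.28, SE, n = 2 per group, edgeR adjusted p = 0.507). The sum of the 3 exchangers was 4.37 and 4.71 RPKM in control and 0.78 and 1.20 RPKM in Isl1_KO. The mitochondrial exchanger Slc8b1 was at 1.82 RPKM in control and 1.59 RPKM in Isl1_KO (means) and did not pass.

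**Figure D3:**
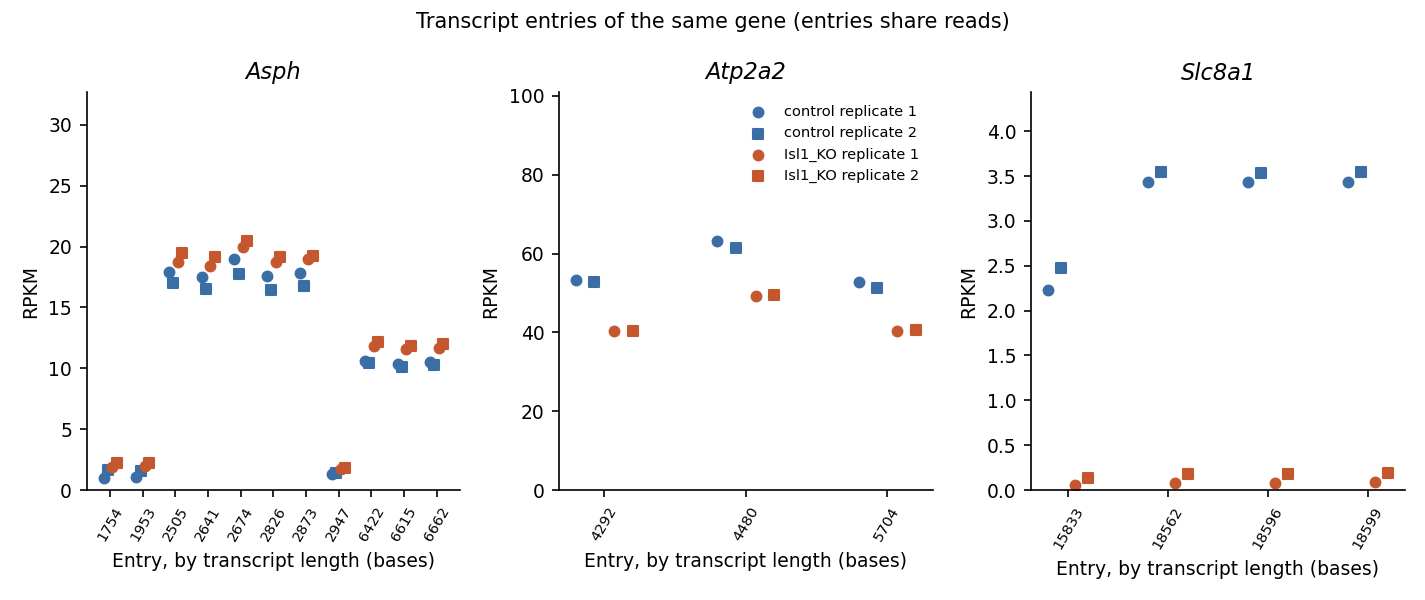
Levels (RPKM) of every transcript entry of Asph, Atp2a2 and Slc8a1 in the 4 libraries, ordered by transcript length in bases, with control in blue and Isl1_KO in orange. All 4 Slc8a1 entries are close to 0 in Isl1_KO, and the 3 Atp2a2 entries are slightly lower. The Asph entries form 3 levels, slightly higher in Isl1_KO, and at the lowest level by more relative to control.

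Ordered by level per length in control, the 10 genes were Atp2a2 with 52.0 ± 1.06 RPKM (mean ± SD, n = 2), Asph with 10.4 ± 0.16, Jph2 with 6.09 ± 0.06, Slc8a1 with 3.49 ± 0.08, Ryr2 with 3.29 ± 0.18, Pln with 0.51 ± 0.06, Casq1 with 0.45 ± 0.16, Casq2 with 0.05, Trdn with 0.035 ± 0.007 and Sln with 0. Slc8a1 lay slightly above Ryr2 in both control libraries (3.43 and 3.55 against 3.16 and 3.41 RPKM), and this was not tested. Pln and Casq1 did not differ beyond their spread, and the last 3 rested on 5 counts or fewer in each library. In Isl1_KO, Atp2a2 at 40.5 ± 0.20 RPKM and Asph at 11.8 ± 0.20 RPKM kept the first places, followed by Jph2 at 1.63 ± 0.91 and Ryr2 at 0.545 ± 0.191. Slc8a1 at 0.140 ± 0.071 RPKM then stood beside Casq1 at 0.200 ± 0.014.

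The same test was read for 56 other calcium genes in 5 lists, of which 53 were tested, 5 fell and 0 rose, against 1.94% and 0.503% of all tested genes. The decreases lay mostly in genes of L-type channels, through which the calcium that triggers release enters. Of 4 subunits of such channels at the cell surface 3 fell. Cacna1c went from 23.6 and 29.3 to 5.07 and 5.81 CPM. Cacna1d went from 21.5 and 24.1 to 2.84 and 5.03 CPM, and Cacnb2 from 5.90 and 6.02 to 1.31 and 0.868 CPM. The log2 fold changes of these 3 were -2.28 ± 0.18, -2.54 ± 0.27 and -2.43 ± 0.29. Their edgeR adjusted p were 0.00902, 0.0213 and 0.0278. Without either control library these 3 calls were lost, as were most calls over all genes. Cacna2d1, the auxiliary subunit with the highest level of the list, was at 53.6 and 53.1 CPM in control against 38.0 and 26.3 in Isl1_KO. It did not pass (-0.73 ± 0.18, edgeR adjusted p = 0.111), but did with DESeq2 (adjusted p = 0.0346) and by the study's criteria. Among 19 tested accessory and regulatory genes of the reticulum only Hrc fell, which encodes a histidine-rich calcium-binding protein of the lumen. Hrc went from 20.7 and 23.5 to 4.84 and 4.68 CPM (-2.21 ± 0.16, edgeR adjusted p = 0.00703). This call too was lost without either control library, when its log2 fold change was -2.30 and -2.11. The abundant Fkbp1a, which encodes a Ryr-binding immunophilin, did not pass (0.10 ± 0.08, edgeR adjusted p = 0.468).

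The general endoplasmic reticulum genes, which most cells use, had 0 of 15 past the threshold, near the 2.45% of all tested genes, and their log2 fold changes ran from -0.63 to 0.40. The chaperone gene Hspa5 was at 1615 and 1578 CPM in control and 1513 and 1142 CPM in Isl1_KO, and calreticulin (Calr), the calcium buffer of the general reticulum, at 1203 and 1212 against 1166 and 937 CPM. Of the plasma membrane pumps Atp2b1 fell slightly, from 285 and 295 to 201 and 206 CPM (-0.51 ± 0.06, edgeR adjusted p = 0.0319). Without either control library its call was lost, as were most calls over all genes. The log2 fold change of Atp2b1 was then -0.54 and -0.49. Atp2b4 was at 76.6 and 81.6 CPM in control and at 97.8 and 116 CPM in Isl1_KO and did not pass (0.44 ± 0.11, edgeR adjusted p = 0.103). Of the 12 tested paralogues of the 10 genes 0 passed, again near the 2.45% of all tested genes, with log2 fold changes from -0.57 to 0.62. The medians of the log2 fold changes were -1.91 over the 7 tested members, -0.20 over the 53 other calcium genes and -0.0027 over all 12715 genes.

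**Figure D4:**
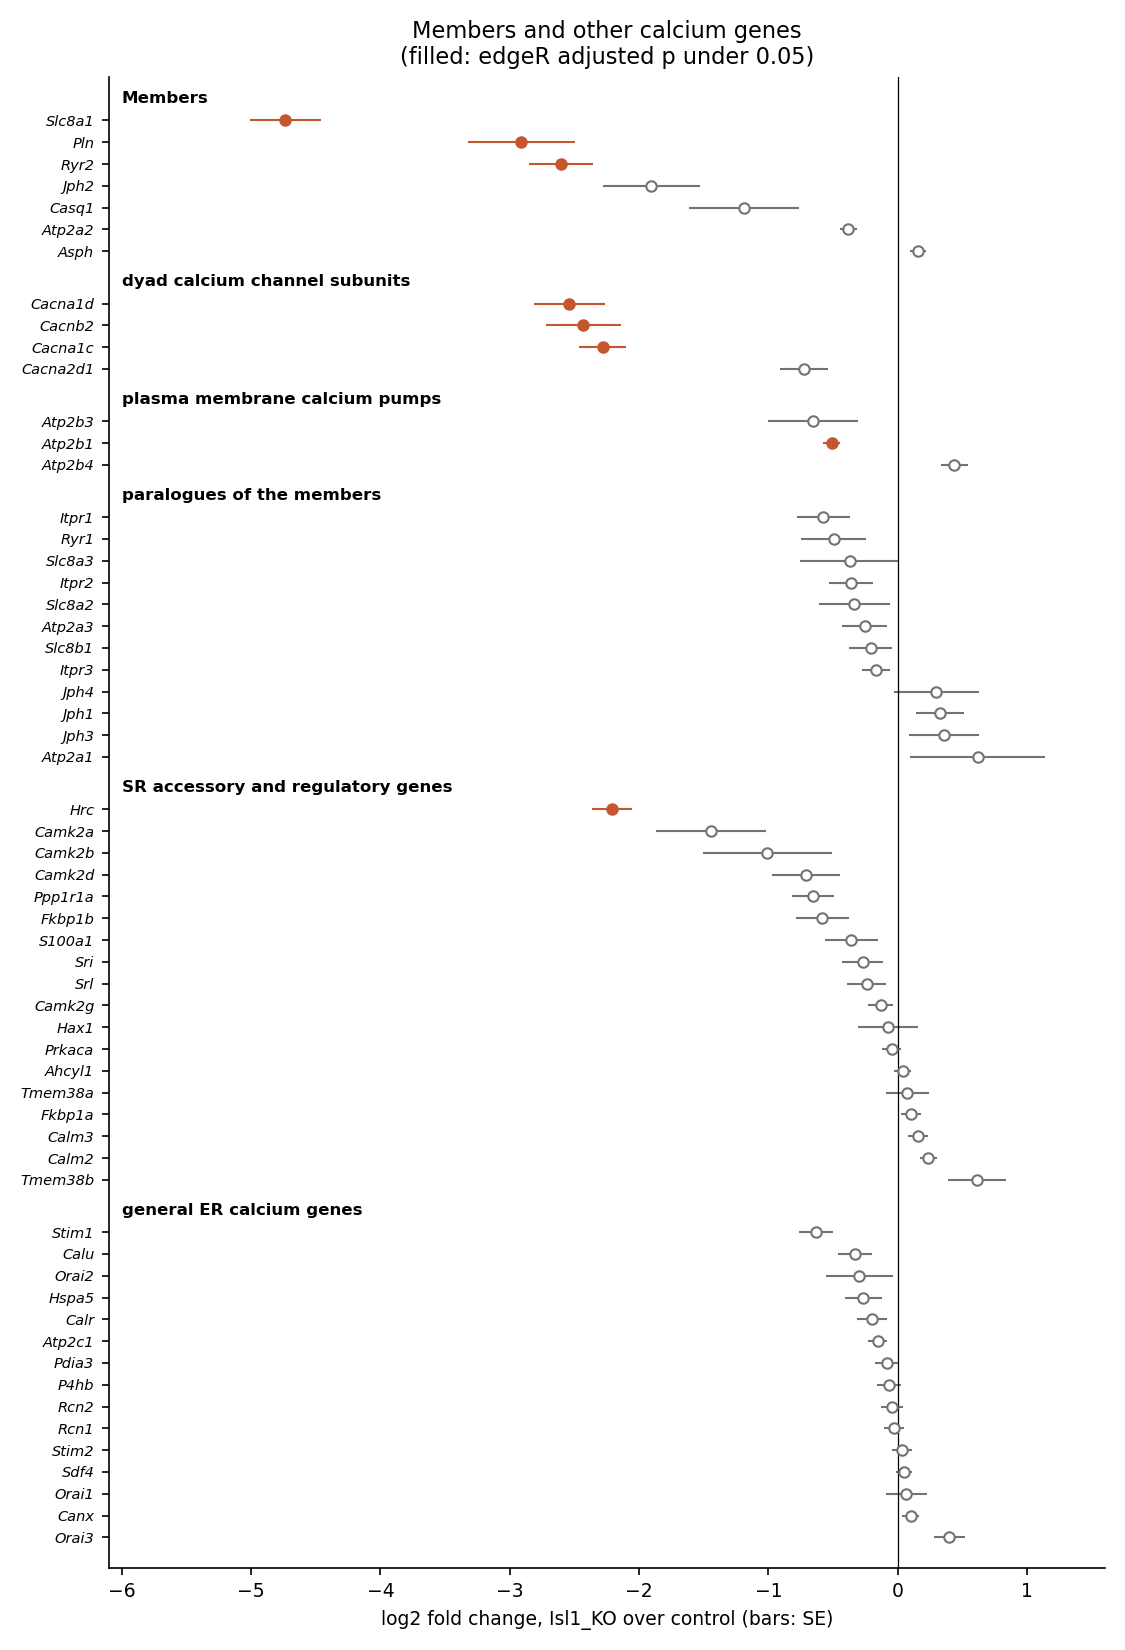
Log2 fold change (Isl1_KO over control) of each tested member and of the other calcium genes by list (1 gene is not drawn), with bars for the standard error; filled orange points passed the edgeR adjusted threshold and open points did not. The filled points are Slc8a1, Pln and Ryr2 among the members and Cacna1d, Cacnb2, Cacna1c, Atp2b1 and Hrc among the others, all on the lower side.

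The genes with the pattern most like that of Ryr2 over the 4 libraries, by the root mean square difference of centred log2(CPM + 0.1), were Tnni1 (0.0515), Hoxa11 (0.0669) and Ephb1 (0.0938). Tnni1, a troponin I gene among the cardiomyocyte markers, went from 111 and 109 to 22.8 and 13.3 CPM, close to Ryr2 in every library. For Atp2a2 they were C530008M17Rik (0.0101), Ccdc92 (0.0120) and Wfs1 (0.0154), of which C530008M17Rik was at 192 and 187 CPM in control and at 145 and 142 CPM in Isl1_KO. With 4 libraries such likeness is a description only.

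**Figure D5:**
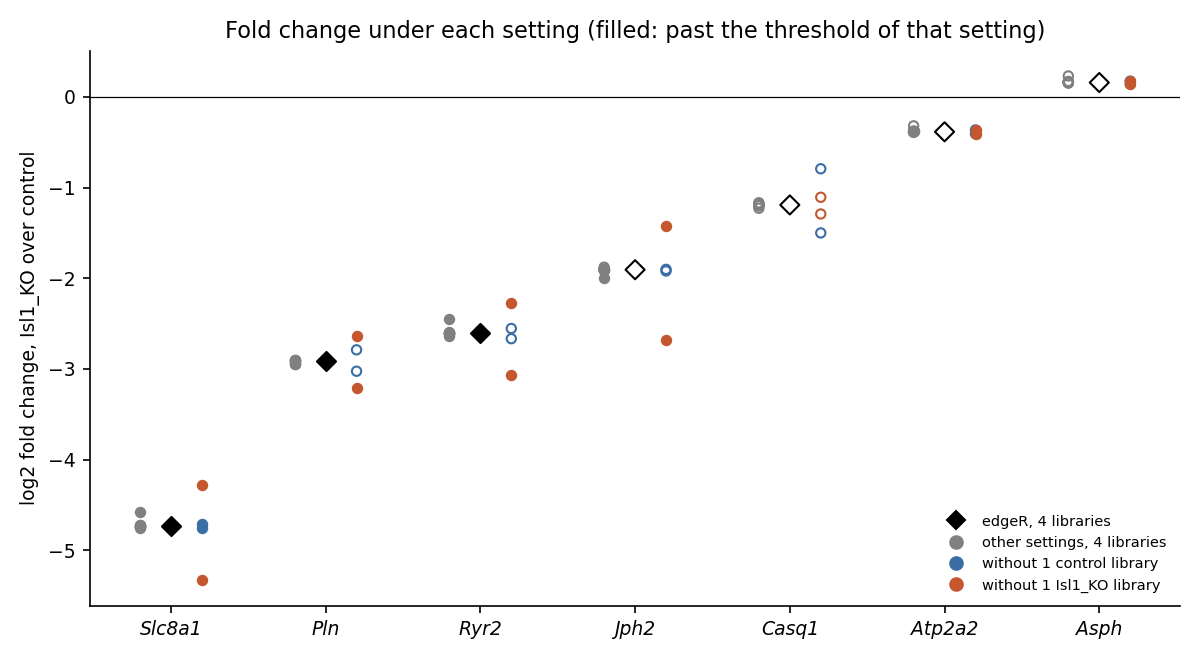
Log2 fold changes of the 7 tested genes with the main edgeR test (black diamonds), with other settings on all 4 libraries (grey), and without 1 control (blue) or 1 Isl1_KO library (orange); filled symbols passed the threshold of their setting. Slc8a1 lay lowest in every setting, and the points of Jph2 spread from -2.68 to -1.42. Ryr2 and Pln were open without a control library, when most calls over all genes were lost as well.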

How the data were processed

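Poly(A) RNA of sorted reporter-positive CPCs was sequenced from 2 control and 2 Isl1_KO clones (Truseq Stranded libraries). Reads had been aligned to mm9 with STAR, and HOMER had tallied exonic reads for every RefSeq transcript, irrespective of strand. The deposited counts are unnormalized reads of each transcript entry, and entries of 1 gene share reads. RPKM values, which the authors computed with edgeR from counts and transcript length and deposited with 2 decimals, were used here for levels between genes and shares. Versions of STAR, HOMER, DESeq2 and edgeR as run by the authors are not given in the sources used here. The authors' columns of log2 fold changes, p-values, a test score and a mean signal were not used. The number of per-sample columns that matched no sample was 0.

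Groups and replicate numbers came from the sample titles. The titles, which say knockout, were followed where the series design names a knockdown. The labels name no batch.

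The kept entries were tested in R 4.3.3 with edgeR 4.0.16 (TMM, filterByExpr, quasi-likelihood F test, no covariate). CPM used effective library sizes. Standard errors are the log2 fold change divided by the square root of F. Intervals and levels of 3 counts cover counting error only. DESeq2 1.42.0, other filters and scalings, a length trend, the replicate number as a block and leaving out each library were tried as alternatives. A fit over all entries and shares from unrounded counts per kilobase were added after the data were seen. Scripts were tested on simulated data. Tables and plots were made in Python 3.11.15 with numpy 2.4.6, pandas 2.3.3, matplotlib 3.10.9 and scipy 1.17.1.

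The genes and the lists were chosen with earlier results of these data known. Named were the 10 genes, Isl1, other calcium genes past the threshold, the 2 with the highest control level in each list, and the 3 genes with the pattern most like Ryr2 and Atp2a2. Of these, 1 is not reported here. Jph1, Slc8a2 and the other paralogues beside them were added after their values were seen. Positions were read from GENCODE vM1 (NCBIM37). Exons of Pln, Slc8a1 and Casq1 also share bases with a predicted gene each, which counting on both strands cannot separate.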

Additional observations from a re-analysis of the deposited data

How the results depend on the processing

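The threshold was passed by 311 of 12715 genes, and by 492 of 16855 without a filter on low counts. It was passed by 602 of 13587 genes with DESeq2, and the study's criteria (1.5-fold, unadjusted p-value) by 993 of 16855. Lower members went from 3 to 5 without a filter and with DESeq2, which added Jph2 (log2 fold change -1.89 and -1.91) and Atp2a2 (-0.37 and -0.38). Jph2 also passed the study's criteria (-1.91). Accessory genes called went from 1 to 2 with DESeq2 and 3 with the study's criteria, and channel subunits from 3 to 4 with both. General reticulum genes called went to 1 and plasma membrane pumps to 0 with the study's criteria. Shares from counts with no length changed by -23.1 percentage points for Ryr2 among release channels and -55.4 for Slc8a1 among exchangers, and the ratios per 100 by -0.352 for Pln to Atp2a2 and -0.290 for Trdn to Ryr2, against -16.2, -63.2, -0.822 and -1.07 with RPKM.

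No label says that the replicate numbers pair the samples, and the main test did not pair them. The deviations of the pairs correlated at r = 0.00947 over 12715 genes. This cannot show whether the samples were paired, since the control libraries differed little beyond sampling of reads. With the replicate block 454 genes passed, and Jph2 among them (log2 fold change -1.995); no other member changed its call.

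Leaving out a control library left 27 and 29 genes past the threshold, and leaving out an Isl1_KO library 4176 to 6350, when the spread came from the close control pair alone, since a lone library is assumed to vary like the other group. Counts of members called in these fits moved with the number of all genes called, and are not read as a result. Log2 fold changes ranged from -3.06 to -2.27 for Ryr2, -5.33 to -4.28 for Slc8a1, -3.21 to -2.64 for Pln, -2.68 to -1.42 for Jph2, -0.41 to -0.36 for Atp2a2, -1.499 to -0.79 for Casq1 and 0.14 to 0.17 for Asph. Other calcium genes called ranged from 0 to 5 for paralogues, 0 to 12 for accessory genes, 0 to 11 for general reticulum genes, 0 to 2 for pumps and 0 to 4 for channel subunits. The RPKM differences ranged from -18.4 to -14.0 percentage points for the Ryr2 share, -65.4 to -61.1 for Slc8a1, -1.18 to -0.156 for Atp2a2 and 1.99 to 23.97 for Casq2, and per 100 from -0.913 to -0.731 for Pln, 2.89 to 22.9 for Casq2 to Ryr2 and -1.27 to -0.880 for Trdn. With at least 10 counts required in every library Pln and Casq1 could not be tested. In that setting 2 members fell, and 217 of 12027 genes passed in either direction. Depth limits Trdn, Casq2, Sln, Casq1 and Pln. No setting reversed a direction.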
